A study of Mus musculus with 22 samples.

Results

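The genes described here are the ATF4 branch of the integrated stress response and its amino acid targets: 37 named genes, of which 36 were found by symbol in the expression table of 15725 genes. Mars, the methionyl-tRNA synthetase gene, was not analysed here. They were read in 22 RNA sequencing libraries of primary microglia, the resident macrophages of the brain, shaken off mixed glial cultures that had been grown for 8 to 10 days from the cortex of C57BL/6 mice aged 1 to 3 days. All 5 groups had received lipopolysaccharide (LPS), a bacterial cell wall component, at 100 ng/ml for 24 h, and no culture without LPS was analysed here. The groups were LPS+Baf A1 (5 libraries), which also had 10 nM of bafilomycin A1, an inhibitor of the proton pump that acidifies lysosomes; LPS+siAtg5 (5 libraries), transfected for 48 h with 50 nM of an siRNA against Atg5, a gene required to form autophagosomes; LPS+CLA (6 libraries), which had 50 nM of CLA; LPS+dNC (3 libraries), the comparator that the design names for LPS+siAtg5, with a control siRNA described for the same transfection; and LPS alone (3 libraries). CLA and dNC are given as in the labels, which leave them unexplained. The design compares LPS+Baf A1 with LPS, LPS+siAtg5 with LPS+dNC, and LPS+CLA with LPS. Values are FPKM, fragments counted relative to transcript length and to all fragments mapped, so levels can be set side by side between genes; the depth of each library is unknown.

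ATF4 is a transcription factor made mainly when translation is slowed. Kinases such as PERK (Eif2ak3), which senses unfolded protein in the endoplasmic reticulum, and GCN2 (Eif2ak4), which senses uncharged tRNA, phosphorylate the initiation factor eIF2 on its alpha subunit, and upstream open reading frames then let ribosomes reach the Atf4 coding sequence. ATF4, with dimer partners of the C/EBP family, switches on genes for amino acid uptake, serine and asparagine synthesis, one-carbon metabolism and tRNA charging, and also feedback genes such as Trib3 and Ppp1r15a and the death-linked factor Ddit3 (CHOP). Much of this control acts on protein, so RNA levels show it in part.

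Many ATF4 target genes carry a C/EBP-ATF response element near their start, and its core is shown here for 7 of the members in which these letters were found. The core TGATGNAA was searched on both strands in RefSeq windows of 300 bases (250 before to 50 after each gene's start, build GRCm38.p6). A window was at hand for 30 of the 37 members, and 8 of these 30 (26.7%) held the core, against 1219 of 27025 genes (4.51%). Each stretch below is the gene's own strand, 5′ to 3′, with the core in capitals and 10 bases on either side; the core reads forward in Asns and as its reverse complement in the others shown.
Asns: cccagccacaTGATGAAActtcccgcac
Atf3: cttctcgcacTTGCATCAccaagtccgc
Chac1: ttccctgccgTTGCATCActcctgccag
Gars: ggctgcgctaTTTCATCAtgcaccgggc
Nupr1: aagggccagaTTGCATCAgacagggctt
Tars: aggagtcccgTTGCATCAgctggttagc
Trib3: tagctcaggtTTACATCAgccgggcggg

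These stretches lie at chr6:7693215-7693242 (minus strand) for Asns, chr1:191183426-191183453 (minus strand) for Atf3, chr2:119351039-119351066 (plus strand) for Chac1, chr6:55037961-55037988 (plus strand) for Gars, chr7:126625563-126625590 (minus strand) for Nupr1, chr15:11399656-11399683 (minus strand) for Tars and chr2:152344029-152344056 (minus strand) for Trib3. The core began 23 bases upstream of the start in Asns, 110 in Atf3 and in Nupr1, 193 in Chac1, 30 in Gars and 15 in Tars, and 15 bases downstream in Trib3. Each of these 7 windows held 1 match. In Atf3, Chac1, Nupr1 and Tars the core has the same letters, TTGCATCA.
The 250 bases upstream of the start are printed whole for Asns, which makes asparagine, and Chac1, which breaks down glutathione, to show the core in its place in the promoter.
Asns: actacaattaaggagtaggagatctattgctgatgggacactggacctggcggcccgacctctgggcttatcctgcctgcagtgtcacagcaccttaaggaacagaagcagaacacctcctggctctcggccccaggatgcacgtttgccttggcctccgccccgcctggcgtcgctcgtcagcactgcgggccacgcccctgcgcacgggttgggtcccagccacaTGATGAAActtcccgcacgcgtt
Chac1: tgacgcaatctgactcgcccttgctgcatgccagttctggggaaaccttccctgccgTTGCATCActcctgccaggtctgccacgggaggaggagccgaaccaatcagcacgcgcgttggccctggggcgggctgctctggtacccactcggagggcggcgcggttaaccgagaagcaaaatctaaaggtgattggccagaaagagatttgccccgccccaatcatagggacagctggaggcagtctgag

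The Asns stretch is chr6:7693210-7693459 (minus strand) and the Chac1 stretch chr2:119350992-119351241 (plus strand). A cyclic AMP response element, TGACGTCA, was found in 1 member window (Ppp1r15a, 3.3% of 30 members, against 2.03% of all genes), and the endoplasmic reticulum stress element (ERSE) in 0 of 30, against 0.14% of all genes. A match is a description of letters, not evidence of binding.

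The LPS+siAtg5 libraries stood apart from the rest. Their median gene was at 4.53 to 4.8 FPKM, against 2.62 to 3.25 FPKM in the other 17 libraries, and 10752 to 10908 genes reached 1 FPKM in them, against 9112 to 9571. The summed level of 14 astrocyte markers was 380.0 to 445 FPKM in LPS+siAtg5, 19 to 22.2 in LPS+Baf A1, 11.1 to 16.5 in LPS+CLA, 6.05 to 24.6 in LPS+dNC and 9.97 to 16.1 in LPS. Gfap averaged 126 FPKM in LPS+siAtg5, against 2.14 FPKM in LPS+dNC; no astrocyte marker was at 0 in LPS+siAtg5 or LPS+dNC, and Ntsr2 was at 0 in the other groups. The 9 neuron markers summed to 59.8 to 74.8 FPKM in LPS+siAtg5, against 1.88 to 14.2 FPKM in LPS+dNC, and the 9 fibroblast, mural and endothelial markers to 92.9 to 124 and 7.84 to 17.5 FPKM in these groups. The 12 microglia markers summed to 4482 to 4620.0 FPKM in LPS+Baf A1, 4667 to 4855 in LPS+siAtg5, 5102 to 5250.4 in LPS+CLA, 3683 to 4181 in LPS+dNC and 4798 to 4828 in LPS, but in LPS+dNC the microglial receptor gene Cx3cr1 averaged 0.177 FPKM, against 7.79 FPKM in LPS. In bulk libraries fewer cells of a type and less RNA per cell cannot be told apart. Single libraries lay apart from their groups in 3 cases: measured by the SD, over genes, of log2 differences from the other libraries of the group, this was 0.267 to 0.273 for LPS+CLA replicate 2 (0.139 to 0.156 among the others), 0.351 to 0.388 for LPS+dNC replicate 1 (0.187) and 0.273 to 0.284 for LPS replicate 3 (0.158). Atg5, the target of the siRNA, had 13.1 ± 0.365 FPKM in LPS+siAtg5, against 22.3 ± 1.67 FPKM in LPS+dNC (mean ± SD), a change of -41.4% (exact permutation test, two-sided p = 0.0357, the smallest that 5 against 3 libraries allow). Whether the other markers played a part in the results on LPS+siAtg5 was not tested.

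Of the 36 members, 34 reached 1 FPKM in at least 3 libraries and were tested, and 32 reached it in all 22. Ddit4 reached it in 8 libraries, all 5 of LPS+siAtg5 among them, and Slc1a5 in 16, none of them LPS+dNC or LPS. Changes are log2 differences on the log2(FPKM + 1) scale, which understates changes of genes with low values, and a gene is called at an adjusted p under 0.05 from limma over all 11070 genes tested. In LPS+Baf A1 against LPS, 10 members were higher and 17 lower, where 32.7% of all genes tested were called higher and 25.1% lower (57.8% in all). The member median was -0.13, against 0.04 for all genes. In LPS+siAtg5 against LPS+dNC, 14 were higher and 15 lower, where 59.6% of all genes were called higher and 21.6% lower (81.2% in all), with medians of 0.01 for members and 0.34 for all genes. In LPS+CLA against LPS, 10 were higher and 18 lower, where 40.4% of all genes were called higher and 22.6% lower (63.1% in all), with medians of -0.22 for members and 0.09 for all genes. The share of members called lower was above the share of all genes in the 3 comparisons, and the share called higher was near it in LPS+Baf A1 and below it in the other two.

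Scaling by median of ratios, which removes most of the shift of all genes, changed these splits to 6 higher and 17 lower in LPS+Baf A1, to 11 and 19 in LPS+siAtg5, and to 7 and 21 in LPS+CLA. It moved the median of all genes in LPS+siAtg5 against LPS+dNC to 0.063, against 0.339 without it, and changed the split of all genes there to 4699 higher and 3981 lower, against 6594 and 2394; in LPS+CLA against LPS the median became -0.012, against 0.090 without it. Of the 11070 genes tested, 3152 were then higher and 3182 lower in LPS+Baf A1, against 3619 and 2776 without it. In LPS+CLA 3370 were higher and 3453 lower, against 4476 and 2505. Without the 3 libraries that lay apart, 9 members were higher and 18 lower in LPS+Baf A1, 14 and 14 in LPS+siAtg5, and 10 and 19 in LPS+CLA. LPS was the highest of the 5 groups for 18 of the 34 members, while LPS+dNC was the lowest for 14 and LPS+siAtg5 for 13. The groups were not ranked in this way over all genes, so these counts cannot be read as particular to the members.

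**Figure D1:**
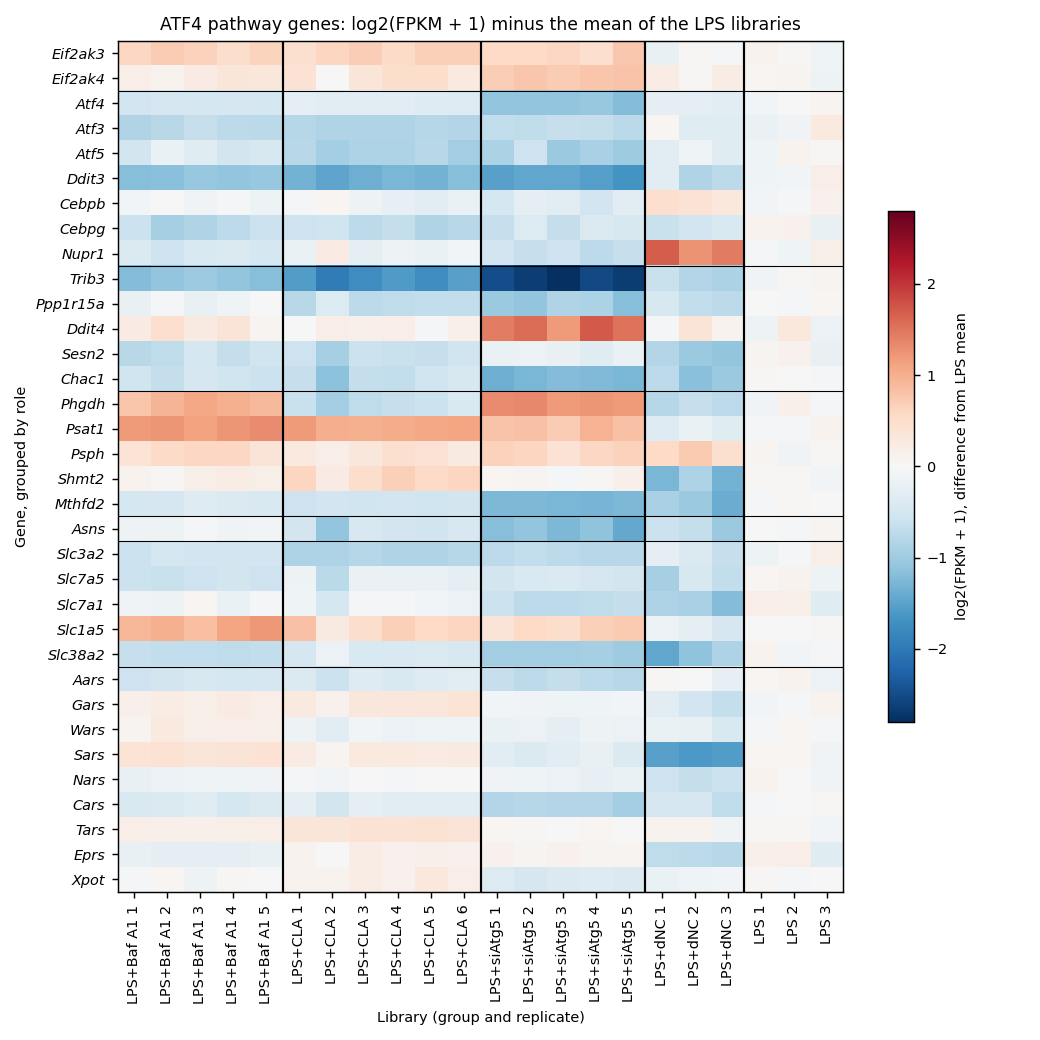
Difference of log2(FPKM + 1) from the mean of the 3 LPS libraries for the 34 tested members (rows, grouped by role) in each of the 22 libraries (columns, by group; blue lower, red higher). Trib3 is the darkest row in the 5 LPS+siAtg5 columns, Psat1 is red in all LPS+Baf A1, LPS+CLA and LPS+siAtg5 columns, and Nupr1 is red in the 3 LPS+dNC columns.

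**Figure D2:**
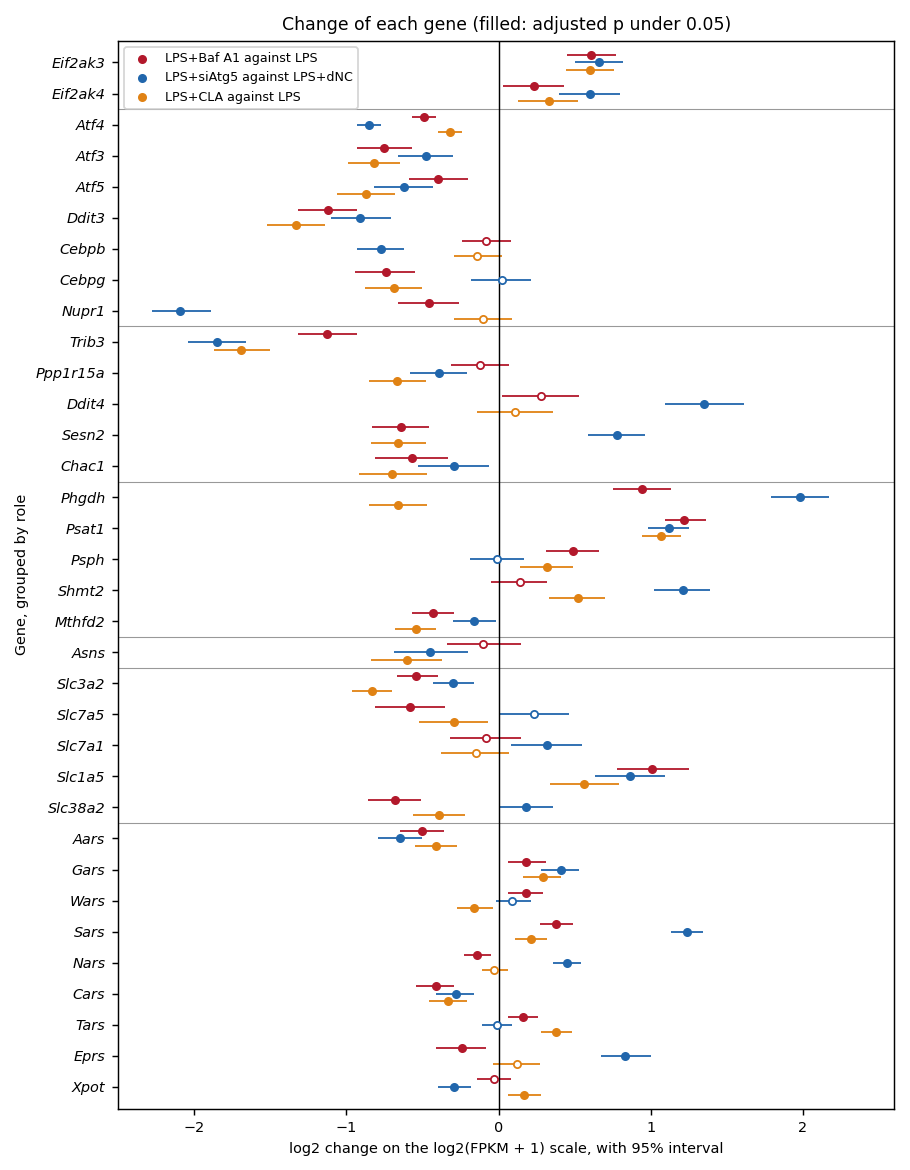
Log2 change of each tested member with its 95% interval in LPS+Baf A1 against LPS (red), LPS+siAtg5 against LPS+dNC (blue) and LPS+CLA against LPS (orange); filled points passed an adjusted p under 0.05. The transcription factors lie left of 0 or near it, and Eif2ak3, Eif2ak4, Psat1 and Slc1a5 lie right of 0 in all 3 comparisons.

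Eif2ak3 and Eif2ak4, the genes of the kinases PERK and GCN2, rose in all 3 comparisons while Atf4 itself fell; the other two eIF2alpha kinase genes, Eif2ak1 and Eif2ak2, are not members and were called higher in none of the 3. Eif2ak3 averaged 4.36 ± 0.288 FPKM in LPS+Baf A1, 4.27 ± 0.376 in LPS+siAtg5 and 4.32 ± 0.33 in LPS+CLA, against 2.34 ± 0.274 in LPS+dNC and 2.51 ± 0.27 in LPS (mean ± SD). Its log2 change was 0.61 (95% interval 0.45 to 0.77, adjusted p = 5.94e-07) in LPS+Baf A1 against LPS, 0.66 in LPS+siAtg5 against LPS+dNC and 0.60 in LPS+CLA against LPS; the gene's exons overlap Gm43292 on the other strand over 8.0% of their bases. Eif2ak4 averaged 2.18 ± 0.207 FPKM in LPS+Baf A1, 3.57 ± 0.137 in LPS+siAtg5 and 2.42 ± 0.429 in LPS+CLA, against 2.01 ± 0.208 in LPS+dNC and 1.71 ± 0.211 in LPS. Its change was 0.60 in LPS+siAtg5 and 0.33 in LPS+CLA; the call in LPS+Baf A1, at 0.23 (adjusted p = 0.0428), was lost without LPS replicate 1 (0.26) or 3 (0.17), without LPS+Baf A1 replicate 3 (0.23), 4 (0.21) or 5 (0.21), and with median-of-ratios scaling (0.20). With quantile normalization the LPS+siAtg5 changes of Eif2ak3 and Eif2ak4 were 0.10 and -0.01 and not called.

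Atf4 had 164, 171, 168, 170.1 and 169 FPKM in the LPS+Baf A1 libraries, 109.97, 109, 110.1, 113 and 101 FPKM in LPS+siAtg5, and a lowest value of 186, a median of 190.1 and a highest of 195 FPKM in the 6 LPS+CLA libraries. Atf4 was at 199, 197 and 193 FPKM in LPS+dNC and 226, 236 and 250.3 FPKM in LPS. No library of LPS+Baf A1, LPS+siAtg5 or LPS+CLA overlapped LPS, the LPS+siAtg5 libraries were the lowest throughout, and LPS+dNC lay below LPS too. The gene (chr15:80255184-80257541, plus strand, GRCm38) fell by 0.49 on the log2 scale in LPS+Baf A1 against LPS (95% interval -0.57 to -0.41, adjusted p = 5.16e-10), by 0.85 in LPS+siAtg5 against LPS+dNC (-0.93 to -0.77, adjusted p = 7.46e-15) and by 0.32 in LPS+CLA against LPS (-0.40 to -0.24, adjusted p = 1.75e-07). Under median-of-ratios scaling these were -0.55, -1.17 and -0.46.

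**Figure D3:**
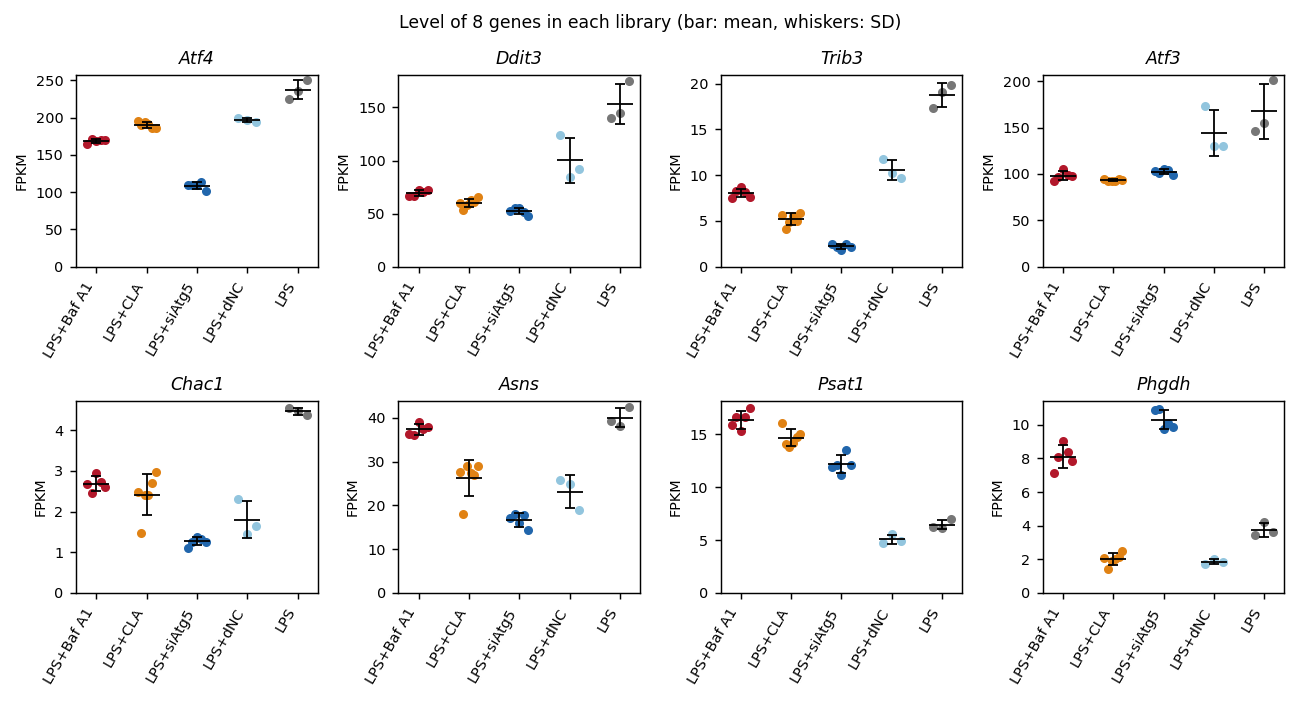
Level in FPKM of Atf4, Ddit3, Trib3, Atf3, Chac1, Asns, Psat1 and Phgdh in each library, by group, with the group mean (bar) and SD (whiskers); axes start at 0. Atf4, Ddit3, Trib3 and Chac1 are highest in the 3 LPS libraries, Psat1 is at 11.2 FPKM or more in every LPS+Baf A1, LPS+CLA and LPS+siAtg5 library, and Phgdh is high in LPS+Baf A1 and LPS+siAtg5 but not in LPS+CLA.

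Among the 7 transcription factor genes, none rose in the 3 comparisons of the design, and 6, 6 and 5 fell in LPS+Baf A1, LPS+siAtg5 and LPS+CLA. Of all genes tested, 32.7%, 59.6% and 40.4% were called higher in these comparisons, and 25.1%, 21.6% and 22.6% lower. Ddit3 encodes CHOP, which drives death and secretion genes under lasting stress. Ddit3 had 66.5, 66.8, 72.1, 70.2 and 72.1 FPKM in the LPS+Baf A1 libraries, 52.9, 54.9, 54.8, 51.6 and 47.5 FPKM in LPS+siAtg5, and a lowest value of 53.8, a median of 60.4 and a highest of 65.8 FPKM in the 6 LPS+CLA libraries. Ddit3 was at 124, 84.5 and 91.9 FPKM in LPS+dNC and 140.4, 145 and 175 FPKM in LPS. The LPS libraries stood above every library of LPS+Baf A1, LPS+siAtg5 and LPS+CLA, and the LPS+dNC libraries above every LPS+siAtg5 library. Ddit3 (chr10:127290774-127296288, plus strand; 4.7% of its exon bases overlap Mars and Gm4189 on the other strand) changed by -1.12 (95% interval -1.32 to -0.93, adjusted p = 6.74e-10) in LPS+Baf A1, by -0.91 (95% interval -1.10 to -0.71, adjusted p = 5.14e-09) in LPS+siAtg5 against LPS+dNC and by -1.33 (95% interval -1.52 to -1.14, adjusted p = 1.19e-11) in LPS+CLA.

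Atf3 encodes a stress-induced factor that also dampens LPS responses in macrophages. Atf3 had 92.4, 96.2, 105, 99.4 and 98.1 FPKM in the LPS+Baf A1 libraries, 103, 101, 106, 104 and 98.5 FPKM in LPS+siAtg5, and a lowest value of 91.9, a median of 93.3 and a highest of 94.6 FPKM in the 6 LPS+CLA libraries. Atf3 was at 173, 129.9 and 129.97 FPKM in LPS+dNC and 146, 155 and 202 FPKM in LPS. Its libraries in LPS+Baf A1, LPS+siAtg5 and LPS+CLA lay between 91.9 and 106 FPKM, below every LPS+dNC and LPS library. The log2 change was -0.75 (95% interval -0.93 to -0.57, adjusted p = 9.65e-08) in LPS+Baf A1, -0.48 (95% interval -0.66 to -0.30, adjusted p = 1.99e-05) in LPS+siAtg5 against LPS+dNC and -0.82 (95% interval -0.99 to -0.65, adjusted p = 9.26e-09) in LPS+CLA. Atf5 encodes a factor linked to mitochondrial protein stress. Atf5 had 11.98, 15.3, 13.5, 11.98 and 12.6 FPKM in the LPS+Baf A1 libraries, 8.92, 11.4, 7.98, 8.84 and 8.3 FPKM in LPS+siAtg5, and a lowest value of 8.38, a median of 9.12 and a highest of 9.83 FPKM in the 6 LPS+CLA libraries. Atf5 was at 13.9, 15.99 and 13.5 FPKM in LPS+dNC and 15.9, 18.6 and 17.9 FPKM in LPS. LPS+siAtg5 and LPS+CLA averaged 9.09 and 9.11 FPKM, and LPS+Baf A1 lay between them and LPS. Atf5 changed by -0.40 (95% interval -0.59 to -0.20, adjusted p = 0.000856) in LPS+Baf A1, by -0.62 (95% interval -0.82 to -0.43, adjusted p = 2e-06) in LPS+siAtg5 against LPS+dNC and by -0.87 (95% interval -1.06 to -0.68, adjusted p = 1.72e-08) in LPS+CLA.

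Nupr1 encodes a small stress-induced chromatin protein. Nupr1 had 128, 114, 126, 128 and 121 FPKM in the LPS+Baf A1 libraries, 117, 109, 114, 102 and 109 FPKM in LPS+siAtg5, and a lowest value of 143, a median of 152 and a highest of 201 FPKM in the 6 LPS+CLA libraries. Nupr1 was at 551, 407 and 465 FPKM in LPS+dNC and 166, 156 and 189.8 FPKM in LPS. The 3 LPS+dNC libraries were far above all others, so the size of the fall in LPS+siAtg5 depends on which group it is set against. Nupr1 changed by -2.09 (95% interval -2.28 to -1.89, adjusted p = 4.24e-15) in LPS+siAtg5 against LPS+dNC and by -0.62 in LPS+siAtg5 against LPS (adjusted p = 2.81e-06). In LPS+Baf A1 it changed by -0.46 (adjusted p = 0.000209), and in LPS+CLA the value was -0.10 (adjusted p = 0.364). The genes of the C/EBP partners of ATF4 differed in where they fell. Cebpb averaged 87.4 ± 7.51 FPKM in LPS+siAtg5, against 150.0 ± 10 FPKM in LPS+dNC, a fall by 0.77, while LPS+Baf A1 (108 FPKM) and LPS+CLA (104 FPKM) did not pass the test against LPS (114 FPKM). The LPS+CLA value of -0.14 was -0.18 and called without LPS+CLA replicate 2, and -0.28 and called with median-of-ratios scaling; 20.7% of its exon bases overlap Tmem189 on the other strand, and the labels state no strand-specific library. Cebpg, whose product pairs with ATF4, averaged 11 ± 1.17 FPKM in LPS+Baf A1 and 11.4 ± 0.942 FPKM in LPS+CLA, against 19.1 ± 2.48 FPKM in LPS, falls by 0.74 and 0.69. Cebpg in LPS+siAtg5 (13.1 FPKM) against LPS+dNC (12.9 FPKM) was at 0.02 and not called, and at -0.28 and called lower with median-of-ratios scaling.

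The feedback gene Trib3, whose product is a pseudokinase that binds ATF4 and restrains it, showed the largest falls among the 34 members in LPS+CLA and, beside Ddit3, in LPS+Baf A1, and the largest but for Nupr1 in LPS+siAtg5 against LPS+dNC. Trib3 had 7.53, 8.21, 8.69, 8.2 and 7.58 FPKM in the LPS+Baf A1 libraries, 2.51, 2.15, 1.82, 2.44 and 2.11 FPKM in LPS+siAtg5, and a lowest value of 4.09, a median of 5.24 and a highest of 5.91 FPKM in the 6 LPS+CLA libraries. Trib3 was at 11.8, 10.2 and 9.65 FPKM in LPS+dNC and 17.3, 19.1 and 19.9 FPKM in LPS. The LPS+siAtg5 libraries were at 2.51 FPKM or less and the LPS libraries at 17.3 FPKM or more, and no treated group overlapped its comparator. Trib3 (chr2:152337422-152344032, minus strand) changed by -1.13 (95% interval -1.32 to -0.93, adjusted p = 5.82e-10) in LPS+Baf A1, by -1.85 (95% interval -2.04 to -1.66, adjusted p = 2.07e-14) in LPS+siAtg5 against LPS+dNC and by -1.69 (95% interval -1.87 to -1.50, adjusted p = 1.88e-13) in LPS+CLA. Chac1 encodes an enzyme that degrades glutathione. Chac1 had 2.69, 2.46, 2.96, 2.73 and 2.6 FPKM in the LPS+Baf A1 libraries, 1.11, 1.26, 1.37, 1.33 and 1.26 FPKM in LPS+siAtg5, and a lowest value of 1.48, a median of 2.44 and a highest of 2.98 FPKM in the 6 LPS+CLA libraries. Chac1 was at 2.31, 1.44 and 1.65 FPKM in LPS+dNC and 4.55, 4.47 and 4.38 FPKM in LPS. All LPS libraries lay above all others, at low levels throughout. Chac1 changed by -0.57 (95% interval -0.81 to -0.33, adjusted p = 0.000156) in LPS+Baf A1 and by -0.70 (95% interval -0.92 to -0.47, adjusted p = 7.57e-06) in LPS+CLA. Against LPS+dNC the LPS+siAtg5 change was -0.29 (95% interval -0.53 to -0.06, adjusted p = 0.0202), and it was -0.17 and not called without LPS+dNC replicate 1.

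Ddit4 encodes REDD1, an inhibitor of the growth kinase complex mTORC1, and moved the other way. Ddit4 had 0.84, 1.16, 0.86, 1.02 and 0.64 FPKM in the LPS+Baf A1 libraries, 3.24, 3.6, 2.58, 4.14 and 3.51 FPKM in LPS+siAtg5, and a lowest value of 0.54, a median of 0.74 and a highest of 0.79 FPKM in the 6 LPS+CLA libraries. Ddit4 was at 0.51, 1.02 and 0.67 FPKM in LPS+dNC and 0.42, 0.93 and 0.4 FPKM in LPS. The 5 LPS+siAtg5 libraries were above all others, which were at 1.16 FPKM or less. Ddit4 rose by 1.35 (95% interval 1.09 to 1.61, adjusted p = 7.69e-10) in LPS+siAtg5 against LPS+dNC, while LPS+Baf A1 (0.28, adjusted p = 0.0565) and LPS+CLA (0.11, adjusted p = 0.419) did not pass the test; the LPS+Baf A1 value was 0.43 and called without LPS replicate 2, 0.33 and called without LPS+Baf A1 replicate 5, and 0.62 and called with a pseudocount of 0.1. Sesn2 encodes sestrin 2, a leucine sensor upstream of mTORC1. Sesn2 had 10.3, 10.9, 12.9, 11.2 and 12.2 FPKM in the LPS+Baf A1 libraries, 16.1, 16.2, 15.9, 14.5 and 16.2 FPKM in LPS+siAtg5, and a lowest value of 9.19, a median of 11.7 and a highest of 12.2 FPKM in the 6 LPS+CLA libraries. Sesn2 was at 10.02, 8.43 and 7.99 FPKM in LPS+dNC and 19.6, 20.04 and 15.96 FPKM in LPS. LPS+Baf A1 and LPS+CLA lay below LPS, and LPS+siAtg5 lay above LPS+dNC but below or within the range of LPS. Sesn2 changed by -0.64 (95% interval -0.83 to -0.46, adjusted p = 1.9e-06) in LPS+Baf A1, by 0.78 (95% interval 0.59 to 0.96, adjusted p = 3.75e-08) in LPS+siAtg5 against LPS+dNC and by -0.66 (95% interval -0.84 to -0.48, adjusted p = 5.96e-07) in LPS+CLA. Set against LPS, the LPS+siAtg5 value was -0.21 (adjusted p = 0.0329), a call that was lost without LPS replicate 1 (-0.17) or 2 (-0.16) or LPS+siAtg5 replicate 4 (-0.19). Ppp1r15a encodes GADD34, the phosphatase subunit that removes the phosphate from eIF2. It averaged 10.5 ± 1.17 FPKM in LPS+siAtg5, against 14.1 ± 1.66 FPKM in LPS+dNC, and 13.7 ± 1.54 FPKM in LPS+CLA, against 22.3 ± 0.786 FPKM in LPS, falls by 0.39 and 0.67. In LPS+Baf A1 it averaged 20.5 ± 1.42 FPKM and did not pass the test (adjusted p = 0.26).

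Of the 5 serine, glycine and one-carbon enzyme genes, 3 rose and 1 fell in LPS+Baf A1 and in LPS+siAtg5, and 3 rose and 2 fell in LPS+CLA. In the same order, 32.7%, 59.6% and 40.4% of all genes were called higher, and 25.1%, 21.6% and 22.6% lower. The share that rose in LPS+siAtg5 was thus near that of all genes. Psat1 encodes the phosphoserine aminotransferase, the second enzyme of serine synthesis. Psat1 had 15.9, 16.6, 15.3, 16.6 and 17.5 FPKM in the LPS+Baf A1 libraries, 11.9, 12.1, 11.2, 13.5 and 12.1 FPKM in LPS+siAtg5, and a lowest value of 13.8, a median of 14.4 and a highest of 16.03 FPKM in the 6 LPS+CLA libraries. Psat1 was at 4.76, 5.57 and 4.86 FPKM in LPS+dNC and 6.2, 6.17 and 6.96 FPKM in LPS. Every LPS+Baf A1, LPS+siAtg5 and LPS+CLA library lay above every LPS+dNC and LPS library. Psat1 (chr19:15904678-15947337, minus strand) rose by 1.22 (95% interval 1.09 to 1.36, adjusted p = 5.03e-13) in LPS+Baf A1, by 1.12 (95% interval 0.98 to 1.25, adjusted p = 3e-13) in LPS+siAtg5 against LPS+dNC and by 1.07 (SE 0.062, adjusted p = 1.03e-12) in LPS+CLA. It rose where Atf4 fell, in each of the 3 comparisons.

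Phgdh encodes the dehydrogenase that starts serine synthesis, and is known for its expression in astrocytes. Phgdh had 7.14, 8.11, 9.01, 8.37 and 7.83 FPKM in the LPS+Baf A1 libraries, 10.9, 10.9, 9.74, 10.1 and 9.85 FPKM in LPS+siAtg5, and a lowest value of 1.44, a median of 2.05 and a highest of 2.52 FPKM in the 6 LPS+CLA libraries. Phgdh was at 1.72, 2.04 and 1.84 FPKM in LPS+dNC and 3.42, 4.2 and 3.6 FPKM in LPS. LPS+Baf A1 and LPS+siAtg5 were high and LPS+CLA and LPS+dNC low, with LPS between and no overlap among these levels. Phgdh (chr3:98313170-98339990, minus strand) rose by 0.94 (95% interval 0.75 to 1.13, adjusted p = 1.03e-08) in LPS+Baf A1 and by 1.98 (95% interval 1.79 to 2.17, adjusted p = 6.42e-15) in LPS+siAtg5 against LPS+dNC, and fell by 0.66 in LPS+CLA (95% interval -0.85 to -0.47, adjusted p = 8.68e-07). Of the 50-base stretches of its exons, 47.8% are also found in other annotated genes, Gm7901, Gm9347 and Gm8341 among them, so its level is uncertain. Beside it, the astrocyte markers summed to 380.0 to 445 FPKM in LPS+siAtg5, against 6.05 to 24.6 FPKM in LPS+dNC, and to 19 to 22.2 FPKM in LPS+Baf A1, against 9.97 to 16.1 FPKM in LPS; in LPS+CLA the sum was 11.1 to 16.5 FPKM. Of the 13 astrocyte markers tested in LPS+Baf A1 against LPS, 3 were called higher and 1 lower. Gja1 averaged 11.2 FPKM in LPS+Baf A1 and 9.1 FPKM in LPS+CLA, against 3.37 FPKM in LPS. Gfap averaged 0.9 FPKM in LPS+Baf A1, against 2.05 FPKM in LPS. The part of these markers in the Phgdh level was not tested.

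Psph encodes the phosphatase of the last step of serine synthesis. It averaged 3.29 ± 0.328 FPKM in LPS+Baf A1 and 2.81 ± 0.266 FPKM in LPS+CLA, against 2.06 ± 0.2 FPKM in LPS, rises of 0.49 and 0.32; 10.4% of its exon bases overlap Cct6a on the other strand. LPS+siAtg5 (3.57 FPKM) and LPS+dNC (3.6 FPKM) gave a Psph difference of -0.01 (95% interval -0.19 to 0.17), which was -0.26 and called lower with median-of-ratios scaling. Shmt2 encodes the mitochondrial enzyme that turns serine into glycine and a one-carbon unit. Shmt2 had 13.3, 12.7, 13.9, 14.3 and 13.96 FPKM in the LPS+Baf A1 libraries, 12.7, 12.9, 12.1, 12.7 and 13.6 FPKM in LPS+siAtg5, and a lowest value of 14.6, a median of 18.6 and a highest of 19.97 FPKM in the 6 LPS+CLA libraries. Shmt2 was at 4.5, 6.29 and 4.34 FPKM in LPS+dNC and 12.6, 12.6 and 11.7 FPKM in LPS. The LPS+dNC libraries were the lowest and LPS+CLA the highest. Shmt2 rose by 1.21 (95% interval 1.02 to 1.39, adjusted p = 2.38e-11) in LPS+siAtg5 against LPS+dNC and by 0.52 (95% interval 0.33 to 0.70, adjusted p = 1.69e-05) in LPS+CLA, but LPS+siAtg5 against LPS was at 0.05 (adjusted p = 0.589) and LPS+Baf A1 at 0.14 (adjusted p = 0.195).

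Mthfd2 encodes the next mitochondrial folate enzyme and fell instead. Mthfd2 had 59.6, 60.5, 64.9, 62.8 and 62.6 FPKM in the LPS+Baf A1 libraries, 34.3, 34.6, 34.1, 33.3 and 34.6 FPKM in LPS+siAtg5, and a lowest value of 55.8, a median of 57.2 and a highest of 58.6 FPKM in the 6 LPS+CLA libraries. Mthfd2 was at 44.4, 40.5 and 31.3 FPKM in LPS+dNC and 81.2, 86.3 and 84.1 FPKM in LPS. LPS lay above all other groups, and LPS+siAtg5 overlapped LPS+dNC. Mthfd2 changed by -0.43 (95% interval -0.57 to -0.29, adjusted p = 9.03e-06) in LPS+Baf A1 and by -0.54 (95% interval -0.68 to -0.41, adjusted p = 1.47e-07) in LPS+CLA. Against LPS+dNC the LPS+siAtg5 change was -0.16 (95% interval -0.30 to -0.02, adjusted p = 0.031); it was -0.06 without LPS+dNC replicate 1, -0.12 without LPS+dNC replicate 2 and -0.15 without LPS+siAtg5 replicate 4, and not called in any of these. Asns encodes asparagine synthetase, a standard readout of ATF4. Asns had 36.2, 35.97, 39.1, 37.4 and 37.97 FPKM in the LPS+Baf A1 libraries, 17.01, 18.1, 16.1, 17.8 and 14.3 FPKM in LPS+siAtg5, and a lowest value of 18.1, a median of 27.5 and a highest of 28.9 FPKM in the 6 LPS+CLA libraries. Asns was at 25.8, 24.8 and 18.9 FPKM in LPS+dNC and 39.4, 38.2 and 42.5 FPKM in LPS. LPS+Baf A1 overlapped LPS, while LPS+CLA and LPS+siAtg5 lay below their comparators, with LPS+CLA replicate 2 far below its group. Asns was at -0.10 in LPS+Baf A1 (95% interval -0.34 to 0.15, adjusted p = 0.502, not called), changed by -0.45 (95% interval -0.69 to -0.20, adjusted p = 0.00125) in LPS+siAtg5 against LPS+dNC and by -0.60 (95% interval -0.84 to -0.37, adjusted p = 6.35e-05) in LPS+CLA, or -0.50 without LPS+CLA replicate 2. Cth, the gene of the enzyme that makes cysteine from cystathionine, was below the filter at group means of 0.0783 to 0.304 FPKM, and so was Stc2, a secreted glycoprotein gene, at 0.01 to 0.244 FPKM.

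Of the 5 amino acid transporter genes, 1 rose and 3 fell with Baf A1 and again with CLA, and 3 rose and 1 fell in LPS+siAtg5 against LPS+dNC. Of all genes, 32.7% were called higher and 25.1% lower in LPS+Baf A1, and 40.4% and 22.6% in LPS+CLA. The share that rose in LPS+siAtg5 was near the 59.6% of all genes called higher there, and 21.6% were called lower. With median-of-ratios scaling 1 transporter gene was higher there and 1 lower, where 4699 of 11070 genes were higher and 3981 lower. Slc3a2 encodes the CD98 heavy chain, which carries the large neutral amino acid exchanger to the membrane. Slc3a2 had 235, 254, 245, 247 and 247 FPKM in the LPS+Baf A1 libraries, 215, 222, 213, 208 and 209 FPKM in LPS+siAtg5, and a lowest value of 195, a median of 199 and a highest of 205 FPKM in the 6 LPS+CLA libraries. Slc3a2 was at 298, 267 and 227 FPKM in LPS+dNC and 324, 350.1 and 399.6 FPKM in LPS. LPS lay above LPS+Baf A1, LPS+siAtg5 and LPS+CLA without overlap, and each LPS+dNC library lay above each LPS+siAtg5 library. Slc3a2 changed by -0.54 (95% interval -0.67 to -0.40, adjusted p = 2.75e-07) in LPS+Baf A1, by -0.30 (95% interval -0.43 to -0.16, adjusted p = 0.000217) in LPS+siAtg5 against LPS+dNC and by -0.83 (95% interval -0.96 to -0.70, adjusted p = 9.43e-11) in LPS+CLA. Slc7a5 encodes LAT1, its catalytic partner. Slc7a5 had 7.59, 7.52, 7.71, 8.21 and 7.74 FPKM in the LPS+Baf A1 libraries, 8.24, 8.71, 8.95, 8.41 and 8.23 FPKM in LPS+siAtg5, and a lowest value of 6.74, a median of 10.5 and a highest of 10.8 FPKM in the 6 LPS+CLA libraries. Slc7a5 was at 5.87, 8.56 and 7.12 FPKM in LPS+dNC and 12.6, 12.99 and 10.9 FPKM in LPS. LPS+Baf A1 was below LPS, and the LPS+siAtg5 and LPS+dNC libraries overlapped. Slc7a5 changed by -0.58 (95% interval -0.81 to -0.35, adjusted p = 8.99e-05) in LPS+Baf A1, while LPS+siAtg5 against LPS+dNC was at 0.23 (adjusted p = 0.0586), called at 0.35 without LPS+dNC replicate 2. The LPS+CLA change of Slc7a5 was -0.29 (95% interval -0.52 to -0.07, adjusted p = 0.0197), and it was not called without LPS replicate 1 (-0.27) or 2 (-0.25).

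Slc1a5, the gene of the glutamine transporter ASCT2, rose in all 3 comparisons at low levels. It averaged 2.8 ± 0.388 FPKM in LPS+Baf A1, 1.78 ± 0.282 in LPS+siAtg5 and 1.79 ± 0.362 in LPS+CLA, against 0.533 ± 0.158 in LPS+dNC and 0.877 ± 0.0462 in LPS. The log2 change was 1.01 in LPS+Baf A1, 0.86 in LPS+siAtg5 against LPS+dNC (0.07 and not called with quantile normalization) and 0.56 in LPS+CLA. Slc38a2 encodes SNAT2, which takes up small neutral amino acids, and averaged 39.5 ± 0.588 FPKM in LPS+Baf A1 and 48.6 ± 4.03 FPKM in LPS+CLA, against 64.1 ± 4 FPKM in LPS, falls by 0.68 and 0.39. In LPS+siAtg5 Slc38a2 averaged 32.3 ± 0.688 FPKM, against 28.7 ± 5.91 FPKM in LPS+dNC: the call (0.18, adjusted p = 0.0468) was lost when any 1 of the LPS+siAtg5 libraries (0.17 to 0.19) or LPS+dNC replicate 1 (0.04) or 2 (0.19) was left out, and the value was -0.13 with median-of-ratios scaling. Slc7a1, which encodes the cationic amino acid carrier CAT1, averaged 6.95 ± 0.317 FPKM in LPS+siAtg5, against 5.41 ± 0.806 FPKM in LPS+dNC, a rise of 0.32 that was not called without LPS+dNC replicate 3 (0.21) or with median-of-ratios scaling (0.04) and was -0.09 with quantile normalization. Slc7a1 was at 11.1 FPKM in LPS+Baf A1 and 10.6 FPKM in LPS+CLA, against 12 FPKM in LPS, and was not called in either; without LPS replicate 3 the values were -0.26 and -0.32 and called.

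The tRNA synthetase genes, which charge tRNAs with amino acids, split in both directions. Of the 8 tested synthetase genes and Xpot, the exporter of tRNA from the nucleus, 4 rose and 4 fell in LPS+Baf A1, 4 rose and 3 fell in LPS+siAtg5 against LPS+dNC, and 4 rose and 3 fell in LPS+CLA. With median-of-ratios scaling the rises were 1, 3 and 1 and the falls 4, 5 and 4. Of the 11070 genes tested, 3152, 4699 and 3370 were then higher and 3182, 3981 and 3453 lower. Without that scaling, 32.7% of all genes were called higher and 25.1% lower in LPS+Baf A1. The shares were 59.6% and 21.6% in LPS+siAtg5 against LPS+dNC, and 40.4% and 22.6% in LPS+CLA. The share of these members that rose was thus below that of all genes in LPS+siAtg5 and near it in LPS+CLA. Sars, for serine, was among the most abundant. Sars had 124, 128, 121, 123 and 126 FPKM in the LPS+Baf A1 libraries, 77.3, 71.5, 76.2, 82.01 and 71.8 FPKM in LPS+siAtg5, and a lowest value of 99.7, a median of 112 and a highest of 115 FPKM in the 6 LPS+CLA libraries. Sars was at 32.4, 30.7 and 31.4 FPKM in LPS+dNC and 98.1, 98.1 and 89.2 FPKM in LPS. Both LPS+Baf A1 and LPS+CLA lay above LPS, and the LPS+dNC libraries lay far below all others. Sars rose by 0.38 (95% interval 0.27 to 0.49, adjusted p = 1.05e-06) in LPS+Baf A1, by 1.24 (95% interval 1.13 to 1.34, adjusted p = 7.71e-16) in LPS+siAtg5 against LPS+dNC and by 0.21 (95% interval 0.11 to 0.32, adjusted p = 0.000561) in LPS+CLA (0.07 and not called with median-of-ratios scaling). Set against LPS, LPS+siAtg5 was lower (-0.33, adjusted p = 4.24e-06). Wars, for tryptophan, is also known as an interferon-induced gene. Wars had 31.5, 35.8, 33.5, 33.8 and 33.5 FPKM in the LPS+Baf A1 libraries, 26.04, 26.3, 24.8, 26.8 and 26.5 FPKM in LPS+siAtg5, and a lowest value of 24.1, a median of 26.9 and a highest of 27.98 FPKM in the 6 LPS+CLA libraries. Wars was at 25.8, 25.7 and 21.9 FPKM in LPS+dNC and 29.04, 30.9 and 28.99 FPKM in LPS. Every LPS+Baf A1 library lay above LPS and every LPS+CLA library below it. Wars changed by 0.18 (95% interval 0.06 to 0.29, adjusted p = 0.0091) in LPS+Baf A1 and by -0.16 (95% interval -0.27 to -0.04, adjusted p = 0.0148) in LPS+CLA, in opposite directions. The rise in LPS+Baf A1 was not called with median-of-ratios scaling (0.12), the fall in LPS+CLA was not called without LPS replicate 2 (-0.13), and LPS+siAtg5 against LPS+dNC was at 0.09 (adjusted p = 0.13), or -0.22 and called lower with median-of-ratios scaling.

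Aars (alanine) and Cars (cysteine) fell in each comparison. Aars averaged 54.1 ± 1.96 FPKM in LPS+Baf A1 and 57.8 ± 3.95 FPKM in LPS+CLA, against 77.2 ± 7.16 FPKM in LPS, and 46.8 ± 1.91 FPKM in LPS+siAtg5, against 74.1 ± 7.81 FPKM in LPS+dNC, falls by 0.50, 0.41 and 0.65; 15.1% of its exon bases overlap Exosc6 or Gm24103. Cars averaged 31 ± 1.16 FPKM in LPS+Baf A1 and 32.8 ± 2.03 FPKM in LPS+CLA, against 41.6 ± 1.06 FPKM in LPS, and 22.9 ± 0.977 FPKM in LPS+siAtg5, against 28.1 ± 2.81 FPKM in LPS+dNC, falls by 0.41, 0.33 and 0.28. Gars (glycine) rose by 0.18 in LPS+Baf A1, by 0.41 in LPS+siAtg5 against LPS+dNC and by 0.29 in LPS+CLA. With median-of-ratios scaling its values were 0.13 in LPS+Baf A1, 0.09 in LPS+siAtg5 and 0.15 in LPS+CLA, none of them called, and it was not called in LPS+Baf A1 without LPS replicate 1 (0.15). Eprs (glutamate and proline) averaged 39.5 ± 0.738 FPKM in LPS+siAtg5, against 21.7 ± 0.574 FPKM in LPS+dNC, a rise of 0.83, and 31 ± 0.841 FPKM in LPS+Baf A1, against 37.5 ± 7.43 FPKM in LPS, a fall by 0.24 that was not called without LPS replicate 1 (-0.17) or 2 (-0.15). Eprs in LPS+CLA (40.1 FPKM) did not pass the test at 0.12, or 0.21 and called without LPS replicate 2. Nars (asparagine) rose by 0.45 in LPS+siAtg5 against LPS+dNC, fell by 0.14 in LPS+Baf A1 (-0.09 and not called without LPS replicate 1) and was at -0.03 in LPS+CLA (not called, or -0.17 and called with median-of-ratios scaling). Tars (threonine) rose by 0.38 in LPS+CLA and by 0.16 in LPS+Baf A1 (0.11 and not called with median-of-ratios scaling) and was at -0.01 in LPS+siAtg5 against LPS+dNC, or -0.32 and called lower with that scaling. Xpot fell by 0.29 in LPS+siAtg5 against LPS+dNC, rose by 0.17 in LPS+CLA (0.03 and not called with median-of-ratios scaling) and was at -0.03 in LPS+Baf A1; stretches of its exons are also found in Gm7389 and Gm49281.

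**Figure D4:**
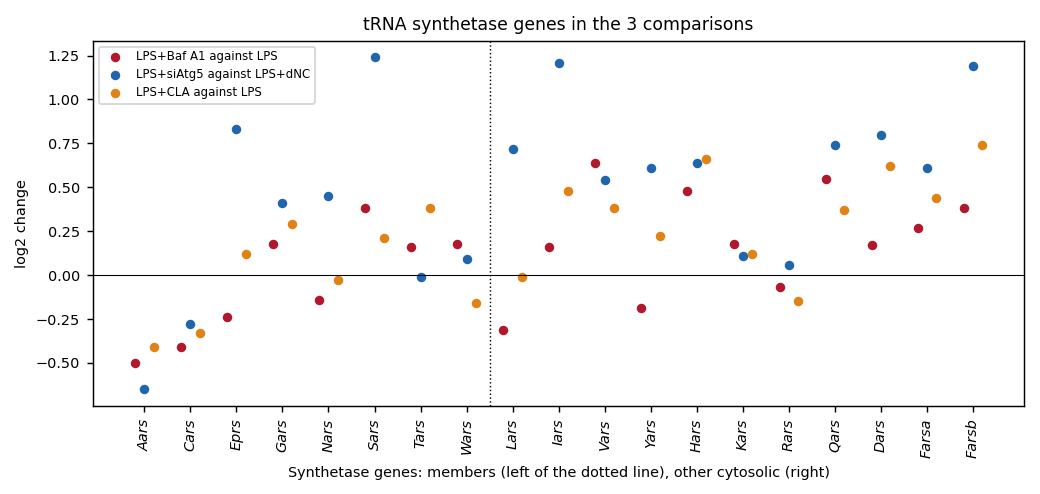
Log2 change of the 8 tested member synthetase genes (left of the dotted line) and 11 other cytosolic synthetase genes (right) in LPS+Baf A1 against LPS (red), LPS+siAtg5 against LPS+dNC (blue) and LPS+CLA against LPS (orange). Aars and Cars lie below 0 in all 3 comparisons, and Sars, Iars and Farsb have blue points above 1.

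Genes of the pathway outside the members were counted over 6 lists, to be read against the shares of all genes called higher and lower: 32.7% and 25.1% in LPS+Baf A1, 59.6% and 21.6% in LPS+siAtg5 against LPS+dNC, and 40.4% and 22.6% in LPS+CLA. Aldh1l2, Gldc, Sesn3 and Rragd reached 1 FPKM in LPS+siAtg5 libraries only, so the filter on low values set their calls there, and the counts are also given without them. Amt and Vldlr reached it in 5 LPS+siAtg5 libraries and in 1 library of LPS+dNC and of LPS, respectively. They too passed the filter through LPS+siAtg5, and they remain in all these counts. Of 11 other cytosolic synthetase genes, 7 rose and 2 fell in LPS+Baf A1 (among them Vars 0.64, Hars 0.48 and Farsa 0.27; Lars -0.31, Yars -0.19), 10 rose and none was called lower in LPS+siAtg5 against LPS+dNC (Iars 1.21, Dars 0.80, Farsb 1.19), and 9 rose and 1 fell in LPS+CLA (Hars 0.66, Dars 0.62, Farsb 0.74; Rars -0.15); the list medians were 0.18, 0.64 and 0.38, against 0.04, 0.34 and 0.09 for all genes. Of 16 mitochondrial synthetase genes, 6, 15 and 9 rose in the same order of comparisons and none was called lower, with medians of 0.11, 0.47 and 0.26. In LPS+siAtg5 against LPS, 5 of the 11 cytosolic genes were higher and 0 lower, where 61.2% and 15.6% of all genes were. In LPS+dNC against LPS, 0 of the 11 were higher and 7 lower, where 29% and 28.1% of all genes were. Of 12 genes of eIF2 kinases, eIF2 and eIF2B, 4 rose and 5 fell in LPS+Baf A1, 8 rose and 3 fell in LPS+siAtg5 against LPS+dNC, and 8 rose and 3 fell in LPS+CLA. Eif2ak2, the gene of the kinase PKR that senses double-stranded RNA, averaged 41.6 FPKM in LPS+Baf A1 and 48.1 FPKM in LPS+CLA, against 76.1 FPKM in LPS, falls by 0.83 and 0.63. Eif2ak1, the gene of the heme-regulated kinase, averaged 18 FPKM in LPS+siAtg5, against 33.2 FPKM in LPS+dNC, a fall by 0.85. In LPS it averaged 21.5 FPKM, and LPS+siAtg5 against LPS was at -0.25. Ppp1r15b, the gene of the constitutive eIF2 phosphatase subunit, fell by 0.81 in LPS+siAtg5 against LPS+dNC and by 0.44 in LPS+CLA. It averaged 66.2 FPKM in LPS+dNC and 50.1 FPKM in LPS, and LPS+siAtg5 against LPS was at -0.41. Of 19 other ATF4 target genes, 8 rose and 2 fell in LPS+Baf A1, 11 rose and 3 fell in LPS+siAtg5 against LPS+dNC, and 5 rose and 4 fell in LPS+CLA, with medians of 0.21, 0.43 and -0.02. In LPS+siAtg5 the share that rose was near that of all genes, and without Aldh1l2 it was 10 of 18. Mthfd1l, a mitochondrial folate enzyme gene, averaged 7.79 FPKM in LPS+Baf A1 and 10.5 FPKM in LPS+CLA, against 2.62 FPKM in LPS, rises of 1.28 and 1.67. Eif4ebp1, the gene of a translation repressor, averaged 16.4 FPKM in LPS+siAtg5, against 62.9 FPKM in LPS+dNC, a fall by 1.88; in LPS it averaged 14.7 FPKM. Slc7a11, the cystine transporter gene, averaged 23.1 FPKM in LPS+Baf A1, against 9.1 FPKM in LPS, a rise of 1.27.

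Of 8 glycine and folate enzyme genes outside the members, 3 rose and 3 fell in LPS+Baf A1, 5 rose and 3 fell in LPS+siAtg5 against LPS+dNC, and 3 rose and 2 fell in LPS+CLA. The shares that rose were near those of all genes in each comparison, and without Gldc 4 of 7 rose in LPS+siAtg5. Mthfd1 averaged 9.73 FPKM in LPS+siAtg5, against 2.23 FPKM in LPS+dNC, a rise of 1.74. Of 11 genes of amino acid sensing by mTORC1, 4 rose and 4 fell in LPS+Baf A1, 6 rose and 2 fell in LPS+siAtg5 against LPS+dNC, and 4 rose and 5 fell in LPS+CLA. The shares that rose were again near those of all genes, and without Sesn3 and Rragd 4 of 9 rose in LPS+siAtg5. Flcn and Fnip1, partners in a complex that acts on the Rag GTPases, fell by 1.19 and 1.40 in LPS+Baf A1 and by 1.07 and 1.22 in LPS+CLA. Sesn1 averaged 17 FPKM in LPS+siAtg5, against 3.09 FPKM in LPS+dNC, a rise of 2.14.

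The LPS+Baf A1 and LPS+siAtg5 comparisons share no library. Of the members, 11 fell in both: Atf4, Atf3, Atf5, Ddit3, Nupr1, Trib3, Chac1, Mthfd2, Slc3a2, Aars and Cars. They were 64.7% of the members that fell in LPS+Baf A1 and 73.3% of those that fell in LPS+siAtg5, where for all genes called lower the shares were 37.6% and 43.6%. The members that rose in both were Eif2ak3, Eif2ak4, Phgdh, Psat1, Slc1a5, Gars and Sars, 70% and 50% of the members that rose, against 66.5% and 36.5% for all genes. None rose in LPS+Baf A1 and fell in LPS+siAtg5 against LPS+dNC, where for all genes the shares were 17.4% and 26.2%. The reverse was seen for 4 members: Sesn2, Slc38a2, Nars and Eprs. They were 23.5% of the members that fell in LPS+Baf A1, against 39.7% for all genes. Of the members that rose in LPS+siAtg5 they were 28.6%, against 16.7% for all genes. The difference of the Baf A1 effect and the siAtg5 effect was itself tested in the same limma fit: it was called higher for 7 members and lower for 16, where 20.4% of all genes were higher and 52.3% lower (72.7% in all), with medians of -0.22 for members and -0.30 for all genes. With median-of-ratios scaling 13 members were higher and 10 lower, and the split of all genes moved as well, to 3438 higher and 4287 lower, against 2261 and 5792 without it.

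For Sesn2 the effects were -0.64 in LPS+Baf A1 and 0.78 in LPS+siAtg5, a difference of -1.42 (95% interval -1.68 to -1.16, adjusted p = 1.26e-09). For Eprs the difference was -1.08 (95% interval -1.31 to -0.85, adjusted p = 1.11e-08), for Slc38a2 -0.87 and for Nars -0.59, and all 4 remained below 0 and called with median-of-ratios scaling (-1.18, -0.82, -0.61 and -0.33). The rise of Slc38a2 in LPS+siAtg5 itself turned negative under that scaling. LPS+dNC was the lowest group for all 4 genes. In LPS+siAtg5, Sesn2 averaged 15.8 FPKM, Slc38a2 32.3, Nars 88.3 and Eprs 39.5. Their means in LPS were 18.5, 64.1, 98.9 and 37.5 FPKM. Nupr1 had a difference of 1.62 (95% interval 1.35 to 1.90, adjusted p = 3.4e-10) and Trib3 of 0.72 (95% interval 0.45 to 0.99, adjusted p = 3.18e-05): both fell less in LPS+Baf A1 than in LPS+siAtg5. Atf4 also fell less in LPS+Baf A1, with a difference of 0.36 (95% interval 0.24 to 0.48, adjusted p = 5.62e-06). Phgdh rose less in LPS+Baf A1, with a difference of -1.04 (adjusted p = 2.34e-07), while the difference for Psat1 was 0.11 (95% interval -0.08 to 0.30) and not called, or 0.35 and called with median-of-ratios scaling. For Ddit3 the difference was -0.22 (95% interval -0.49 to 0.06, not called), or -0.38 and called without LPS+dNC replicate 1.

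**Figure D5:**
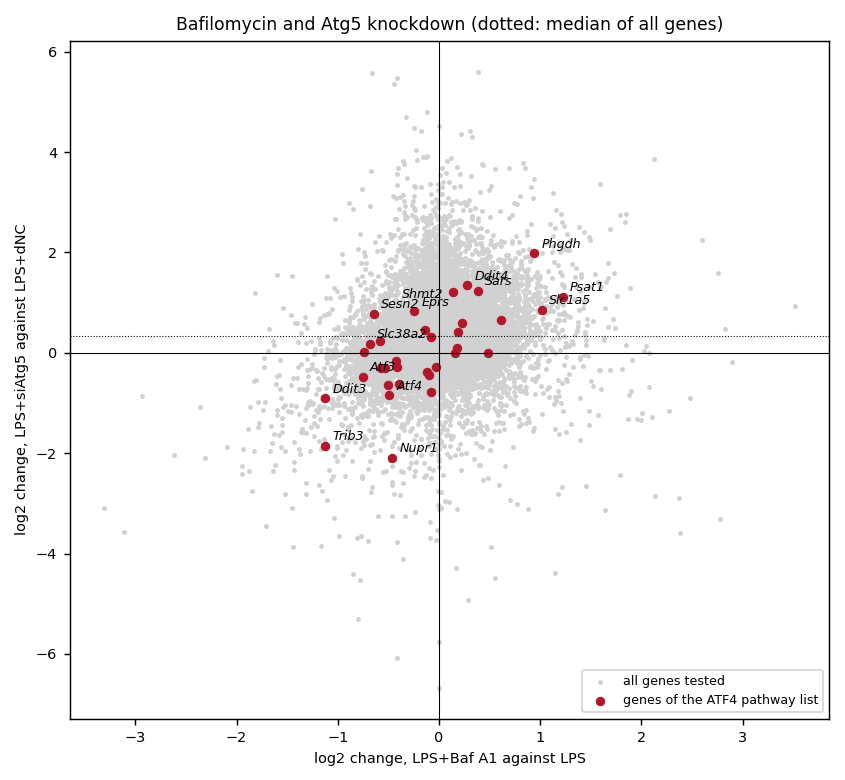
Log2 change in LPS+Baf A1 against LPS (horizontal) and in LPS+siAtg5 against LPS+dNC (vertical) for the 34 tested members (red) and all 11070 genes tested (grey); the dotted line is the median of all genes on the vertical axis, 0.339. Trib3, Ddit3 and Atf4 lie at the lower left, Psat1, Phgdh and Slc1a5 at the upper right, and Sesn2 and Eprs at the upper left.

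LPS+CLA was also set against LPS+Baf A1. There 9 members were higher and 12 lower, where 35.4% of all genes were called higher and 19% lower (54.3% in all), with medians of -0.06 for members and 0.06 for all genes. Without the 3 libraries that lay apart, 13 were higher and 12 lower. Phgdh had the widest gap among the members, at 2.01 ± 0.351 FPKM in LPS+CLA and 8.09 ± 0.688 FPKM in LPS+Baf A1, a fall by 1.60 (95% interval -1.76 to -1.44, adjusted p = 9.87e-14). Trib3 (-0.56), Ppp1r15a (-0.55), Asns (-0.51), Atf5 (-0.47), Slc1a5 (-0.45), Wars (-0.33) and Slc3a2 (-0.30) were lower in LPS+CLA. Shmt2 (0.38), Nupr1 (0.36), Eprs (0.36), Slc38a2 (0.29), Slc7a5 (0.29), Tars (0.22), Xpot (0.20), Atf4 (0.17) and Nars (0.11) were higher, the last 2 not called with median-of-ratios scaling (0.09 and 0.03). Sars (-0.17), Ddit3 (-0.21), Psat1 (-0.15) and Psph (-0.17) were also lower in LPS+CLA; Ddit3 was not called without LPS+Baf A1 replicate 3 (-0.19) or 5 (-0.19) or LPS+CLA replicate 2 (-0.18), Psat1 not without LPS+Baf A1 replicate 5 (-0.13), and Psph not without any 1 of 3 LPS+Baf A1 and 4 LPS+CLA libraries (-0.14 to -0.17). Sesn2 (-0.17 to 0.14), Chac1 (-0.32 to 0.07), Atf3 (-0.22 to 0.08) and Eif2ak3 (-0.15 to 0.12) did not pass the test, with the 95% intervals given. Cars was at 0.08 and not called, but was called at 0.11 without LPS+CLA replicate 2.

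The comparator groups differed from each other. In LPS+dNC against LPS, 3 members were higher and 24 lower, where 29% of all genes were called higher and 28.1% lower (57.2% in all), with medians of -0.52 for members and 0.00 for all genes. Sars (31.5 ± 0.827 FPKM in LPS+dNC and 95.2 ± 5.12 FPKM in LPS) fell by 1.56, Slc38a2 by 1.15, Shmt2 by 1.15, Mthfd2 by 1.11 and Slc7a1 by 1.00. Nupr1 (1.46), Psph (0.59) and Cebpb (0.39) were higher. The fall of Atf5 (-0.26) was lost without LPS replicate 2 (-0.21) or 3 (-0.24) or LPS+dNC replicate 1 (-0.23) or 3 (-0.21), and that of Slc1a5 (-0.30) without any LPS library (-0.28 to -0.31) or LPS+dNC replicate 2 (-0.32) or 3 (-0.21). LPS+siAtg5 set against LPS, a comparison that shares libraries with those above, gave 7 members higher and 23 lower, where 61.2% of all genes were called higher and 15.6% lower (76.8% in all), with medians of -0.43 for members and 0.31 for all genes. Trib3 (2.21 FPKM in LPS+siAtg5, against 18.8 FPKM in LPS) fell by 2.63, Ddit3 by 1.53, Chac1 by 1.27, Mthfd2 by 1.27, Asns by 1.22 and Atf4 by 1.12. Ddit4 (1.49), Phgdh (1.26), Psat1 (0.82), Eif2ak4 (0.75), Psph (0.58), Eif2ak3 (0.58) and Slc1a5 (0.56) rose; with quantile normalization Eif2ak4 (0.09) and Eif2ak3 (0.00) were not called and Psph (-0.08) and Slc1a5 (-0.28) turned negative. The 3 LPS+dNC columns name no unit in their headers and were read as FPKM, which bears on every value set against them.

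The 8 members whose window held the element core were compared with the 21 tested members whose window held no match. In LPS+Baf A1 against LPS, 2 of the 8 rose and 5 fell, against 6 and 9 of the 21, with medians of -0.48 and -0.08. In LPS+siAtg5 against LPS+dNC, 1 rose and 6 fell, against 11 and 8, with medians of -0.46 and 0.18. In LPS+CLA against LPS, 2 rose and 5 fell, against 7 and 10, with medians of -0.51 and -0.15. Of all genes, 32.7%, 59.6% and 40.4% were called higher in the same order of comparisons, and 25.1%, 21.6% and 22.6% lower. With and without the core, the medians were -0.35 and -0.53 in LPS+dNC against LPS, and -0.70 and -0.39 in LPS+siAtg5 against LPS. They were 0.01 and -0.07 in LPS+CLA against LPS+Baf A1. For the difference of the Baf A1 and siAtg5 effects they were 0.16 and -0.27. Gars and Tars, which hold the core, were the pair that rose both with Baf A1 and with CLA, and Psat1, Phgdh and Ddit3 had no match in their windows. These medians are descriptions of few genes and were given no test.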

How the data were processed

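RNA of 22 libraries was sequenced after poly-A selection, per the labels' protocols. The deposited values are FPKM per gene symbol made by the authors, 19 columns being named FPKM per the file headers; the 3 LPS+dNC headers name no unit. CASAVA 1.7, fastp 0.18.0, Bowtie2 2.2.8, HISAT2 and StringTie 1.3.1 are named per the submitters' processing notes, with no roles; no source used here states the genome build, annotation or strand setting. Depth is unknown, so no counting interval was given. Groups came from the labels, which do not say whether replicates are separate cultures, and the spread behind each p-value may therefore be technical.

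Values were taken as log2(FPKM + 1), and genes at 1 FPKM or more in at least 3 libraries were kept (11070 of 15725). Means of 5 groups were fitted in limma 3.58.1 (R 4.3.3) with trended, robust variance and 17 residual degrees of freedom, with p-values adjusted by Benjamini-Hochberg over all genes tested; 7 comparisons were read from this fit, which was first tested on simulated data. Atg5 was also given an exact permutation test over 8 libraries. Median-of-ratios scaling divided each library by the median ratio of its genes to their geometric mean over libraries. Alternatives were pseudocounts of 0.1 and 0.5, no filter or 5 FPKM, median-of-ratios or quantile scaling, only the groups compared, array weights, a replicate block, and leaving out single libraries or the 3 that lay apart.

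The members and gene lists were chosen with earlier results of these data known. Values by library (in LPS+CLA the lowest, the median and the highest) are given for 14 members chosen by role and for the 5 members with the largest called change at 5 FPKM or more in each of the 3 main comparisons. Exon overlaps and shared 50-base stretches were computed on GRCm38 (GENCODE vM21), and promoter windows are RefSeq's, build GRCm38.p6. Some items are not reported here.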

Additional observations from a re-analysis of the deposited data

Results flagged for a closer look

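Member values were checked for single libraries far from their group in LPS+Baf A1, LPS+siAtg5 and LPS+CLA. LPS and LPS+dNC, with 3 libraries each, were not checked. In 12 of 102 groups of member values checked, 1 library lay far from the rest of its group, where chance gives about 1 in 20. Of these, 9 were in LPS+CLA replicate 2. That library had 200.98 FPKM of Nupr1, 16.82 of Ppp1r15a, 9.19 of Sesn2, 18.06 of Asns, 6.74 of Slc7a5, 8.07 of Slc7a1, 56.63 of Slc38a2, 99.65 of Sars and 28.84 of Cars. Without it, none of these 9 genes changed its call in LPS+CLA against LPS: Asns was at -0.50, against -0.60 with it, and Slc7a5 at -0.20, against -0.29. In LPS+CLA against LPS+Baf A1, Cars was called without it, at 0.11, against 0.08 with it. The other values were 11.42 FPKM of Atf5 in LPS+siAtg5 replicate 2, 14.48 of Sesn2 in LPS+siAtg5 replicate 4 and 21.16 of Cars in LPS+siAtg5 replicate 5.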

How the results depend on the processing

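Counts of members moved by over 1.5 times in these cases. In LPS+Baf A1 against LPS, 6 members were higher with a filter of 5 FPKM and 6 with median-of-ratios scaling, against 10. In LPS+siAtg5 against LPS+dNC, 9 were higher with quantile normalization, against 14. In LPS+CLA against LPS, 6 were higher with a filter of 5 FPKM, against 10. In LPS+siAtg5 against LPS, 2 were higher with a filter of 5 FPKM and 3 with quantile normalization, against 7. The difference of the Baf A1 and siAtg5 effects was called higher for 13 with median-of-ratios scaling and 15 with quantile normalization, against 7, and lower for 10 with median-of-ratios scaling, against 16. The filter of 5 FPKM left 28 members; the cause of the other changes was not tested.

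Values called with or without the change of setting turned their sign under scaling alone. In LPS+siAtg5 against LPS+dNC, median-of-ratios scaling gave Cebpg -0.28, Slc38a2 -0.13 and Wars -0.22, and quantile normalization gave Eif2ak4 -0.01, Cebpg -0.28 and Slc7a1 -0.09. In LPS+siAtg5 against LPS, median-of-ratios scaling gave Shmt2 -0.27, Tars -0.31 and Eprs -0.25, and quantile normalization gave Psph -0.08, Shmt2 -0.24, Slc1a5 -0.28 and Tars -0.20. In the difference of effects, median-of-ratios scaling gave Slc3a2 0.03 and Gars 0.04, and quantile normalization gave Eif2ak3 0.43, Eif2ak4 0.16 and Chac1 0.50. Of the other values of single genes, 4350 stayed on their side of the threshold, 52 of them uncalled values that changed sign, such as Sesn2 in LPS+CLA against LPS+Baf A1 (0.04 without LPS+CLA replicate 2, against -0.02); 127 lost the call and 87 gained it.

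Leaving out 1 library at a time gave 23 to 27 members called (8 to 11 higher, 15 to 18 lower) in LPS+Baf A1, 26 to 28 (13 to 14, 13 to 15) in LPS+siAtg5 against LPS+dNC, 27 to 29 (10 to 11, 16 to 19) in LPS+CLA, 25 to 27 (3, 22 to 24) in LPS+dNC, 29 to 30 (7 to 8, 22 to 23) in LPS+siAtg5 against LPS, 19 to 23 (9 to 13, 10 to 12) in LPS+CLA against LPS+Baf A1, and 19 to 24 (6 to 10, 11 to 18) in the difference of effects; Atg5 was at -0.76 to -0.67. With a replicate block, 27, 27, 28, 27, 29, 20 and 21 members were called in these comparisons and Atg5 was at -0.73; same-numbered libraries correlated at -0.113 to 0.0906 in their deviations, so the numbers were not taken to pair the libraries.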
